A study of Mus musculus with 19 samples.

Results

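The libraries compared here are the 8 FMRP CLIP libraries of activated CA1 tissue, 4 collected 5 min and 4 collected 30 min after optogenetic activation, out of 19 libraries in the series. They were chosen by their title and treatment label alone. No measured value entered the choice, and no control library enters the contrast. All 8 came from CA1 of the mouse hippocampus with the genotype Camk2a-Cre x Fmr1 cTag and the treatment AAV-ChR2, a virus carrying channelrhodopsin-2, a light-gated ion channel. The 8 control libraries, used below only as a reference for the passage of time, shared the genotype and received AAV-Control, with 4 libraries at 5 min and 4 at 30 min. A further 3 libraries titled noCre measured the background of the purification, although the labels give them the genotype and cells of the Cre-positive libraries.

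Age, sex and the number of animals behind each library were not given in the sources used here. Nothing in the labels says that replicates came from separate animals, so p-values measure only the spread between these libraries, which may be technical. All 5 min libraries, and none of the 30 min libraries, are labelled as newly added files. The time after activation and the round of deposit are therefore one and the same split of these 8 libraries, and their effects cannot be told apart.

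FMRP, the product of Fmr1, is an RNA-binding protein whose loss causes fragile X syndrome. In neurons it binds many mRNAs, largely along their coding sequence, and is known for restraining their translation at polyribosomes, including transcripts carried to synapses. In CLIP, ultraviolet light bonds a protein covalently to RNA in direct contact with it, and the RNA that copurifies is read as sequence tags. The cTag allele tags FMRP where Cre has acted, and the Camk2a promoter places Cre in excitatory forebrain neurons. A tag count therefore combines how much of an RNA is present with how much of it is bound, and these data alone cannot separate them. In a bulk library of this kind, fewer contributing cells and less bound RNA per cell cannot be told apart either.

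The deposited files list transcripts by Ensembl ID with their number of tags, and a transcript not listed in a file was taken as 0. None of the IDs matched the gene table used here, so transcripts appear by ID, without gene names, positions or sequences. For the same reason the labelled cell type was not checked against its marker genes.

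The first question was how many tags the activated tissue yielded at each time. At 30 min the libraries held 20456, 29396, 121972 and 41721 tags in replicates 1 to 4, and at 5 min they held 256727, 98257, 194181 and 84614. Of the 30 min libraries, 3 lay below every 5 min library, and replicate 3 lay inside the 5 min range. The geometric mean at 30 min was 0.293 of that at 5 min, a 3.41-fold difference. It did not pass 0.05 in the exact two-sided permutation test (p = 0.0857, n = 4 per group, smallest possible p 0.0286). Without opto 30 min replicate 3, the library inside the 5 min range, the ratio was 0.205 and the exact permutation p was 0.0286. With any other library left out the exact permutation p was 0.0857 to 0.143, so it did not pass. Taking 3 tags as the limit, a transcript with a count of 0 could still have a share of 0.0147% in the shallowest library and 0.00117% in the deepest. These limits cover counting error only.

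The 8 libraries together listed 39277 transcripts. At 30 min 23543 were listed in at least 1 library and at 5 min 36449, and 20715 were listed at both times. These shared transcripts made up 88.0% of the 30 min list and 56.8% of the longer 5 min list. The 15734 listed only at 5 min had a median of 1 tag and held 5.61% of the 5 min tags. The 2828 listed only at 30 min held 1.54% of the 30 min tags.

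Because longer lists come with deeper libraries, breadth was compared after bringing every library to the 20456 tags of the shallowest. At that depth the 30 min libraries listed fewer transcripts than the 5 min libraries, and a larger share of their tags lay on the most tagged ones. Opto 30 min replicates 1 to 4 had 7768, 7174, 7428 and 7321 transcripts, a mean of 7423 ± 253 (SD, n = 4). Opto 5 min replicates 1 to 4 had 8158, 8026, 8195 and 8077, a mean of 8114 ± 76.5 (SD, n = 4). The groups did not overlap, and the ratio of the means was 0.915 (exact two-sided permutation p = 0.0286, the smallest this design can give).

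The 100 most tagged transcripts of each library held 24.7%, 23.0%, 21.8% and 23.4% of its tags in opto 30 min replicates 1 to 4. In opto 5 min replicates 1 to 4 they held 17.6%, 19.5%, 17.9% and 19.4%. Again the groups did not overlap, with a difference of 4.63 percentage points (exact two-sided permutation p = 0.0286, n = 4 per group). Of the 100 most tagged transcripts of the pooled 30 min tags, 77 were also among the 100 of the pooled 5 min tags. The 100 transcripts most tagged in the control libraries, a set the activated libraries did not choose, held 21.3% to 22.3% of the tags at 30 min and 17.4% to 19.2% at 5 min. All 100 passed the filter on low counts described below. Their median log2 fold change from 5 to 30 min was 0.16, against 0.00 over all tested transcripts, and 61 of them were higher at 30 min.

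The control libraries give the same measures without activation. At 20456 tags the controls listed 7948 ± 160 transcripts at 30 min and 7882 ± 439 at 5 min (SD, n = 4 each), with overlapping ranges (exact two-sided permutation p = 0.943). The opto time difference minus the control time difference was -757 transcripts (p = 0.0335, exact permutation of time within each treatment, 4900 arrangements). The permutation assumes no time difference in either treatment. A time difference in the opto libraries alone can lower its p, so it is not a test of equal time differences. The comparison was chosen after the control values were seen, and it rests in part on a single shallow control. Control 5 min replicate 2, with 40173 tags, listed 7225 transcripts against 8056 to 8138 in the other 5 min controls. Without it the difference was -538 and the exact permutation p was 0.0824. Leaving out opto 30 min replicate 2, opto 30 min replicate 4 or control 30 min replicate 1 gave exact permutation p-values of 0.0543, 0.0510 and 0.0620. The corresponding difference for the share of the 100 most tagged transcripts was 4.17 percentage points (exact permutation p = 0.0751). The opto 30 min group was both the shallower and the narrower one. Within it the shallowest library, replicate 1, listed the most, while among the 5 min controls the shallowest, replicate 2, listed the fewest. Opto 30 min replicate 3, the deep library of its group at 121972 tags, listed 7428 transcripts at equal depth. That is below the range of 7753 to 8130 of the 30 min controls, whose totals ran from 81588 to 192471. These are values of single libraries, and the part of depth in the difference was not tested.

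**Figure D1:**
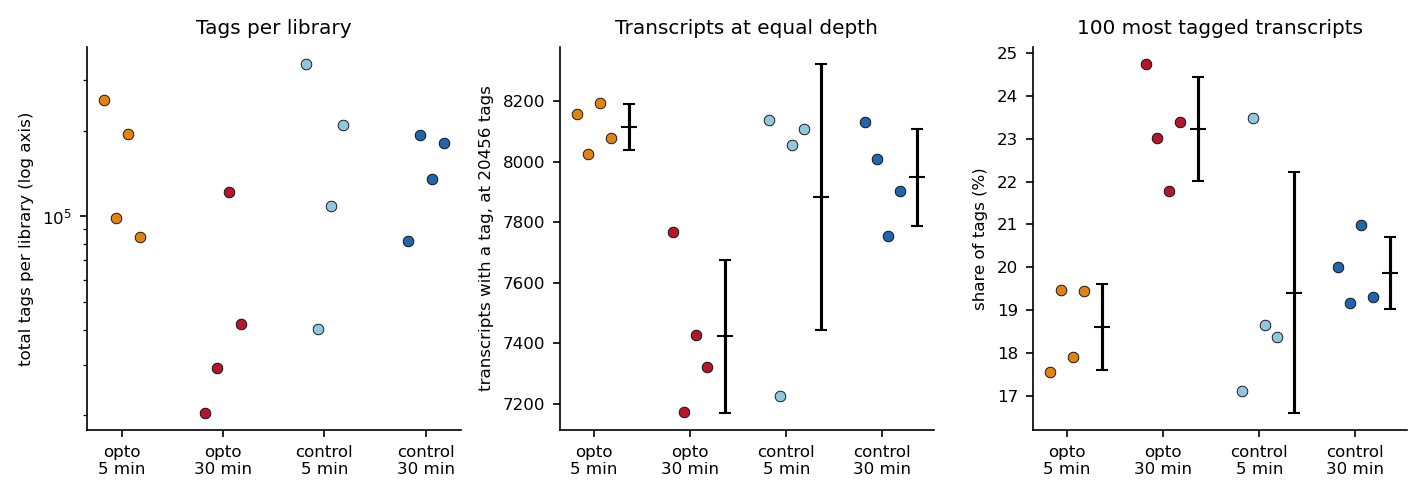
Total tags (log axis, left), transcripts with at least 1 tag at 20456 tags (middle) and the percentage of tags on each library's 100 most tagged transcripts (right), for 4 opto and 4 control libraries at each time; points are libraries in replicate order, and the horizontal marks with bars are mean ± SD. The opto 30 min libraries list fewer transcripts at equal depth than the opto 5 min libraries, without overlap, and 1 control 5 min library (7225 transcripts) lies at their level.

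The next comparison took each transcript's part of its library's tags. It asks which RNAs took a larger or smaller part of the FMRP tags at 30 min than at 5 min. The filter on low counts kept 1654 transcripts, and between 53.9% and 61.6% of an activated library's tags lay on them. Fold changes below are 30 min over 5 min. Levels are tags per 1000000 tags of the tested transcripts (CPM), scaled by TMM, a method that sets libraries to a common middle of their fold changes.

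Between the times, 14 of these 1654 (0.846%) differed at an adjusted p under 0.05 in edgeR's quasi-likelihood test with Benjamini-Hochberg adjustment. Of these, 3 were higher at 30 min (0.181% of those tested) and 11 were lower (0.665%). The higher ones rose by 1.37 to 1.88 on the log2 scale, and the lower ones had log2 fold changes from -2.02 to -1.23. At an unadjusted p under 0.05, 131 transcripts (7.92%) were higher and 148 (8.95%) lower, 16.9% in all. A further 39 had an adjusted p from 0.05 to 0.10, of which 22 were higher and 17 lower at 30 min, and the smallest adjusted p that missed the threshold was 0.0548. TMM centres the fold changes, and under it 830 tested transcripts were higher and 824 lower, with quartiles of the log2 fold change at -0.31 and 0.31. Scaled by library totals only, the median log2 fold change was -0.10, and at an unadjusted p under 0.05 84 transcripts were higher and 191 lower.

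**Figure D2:**
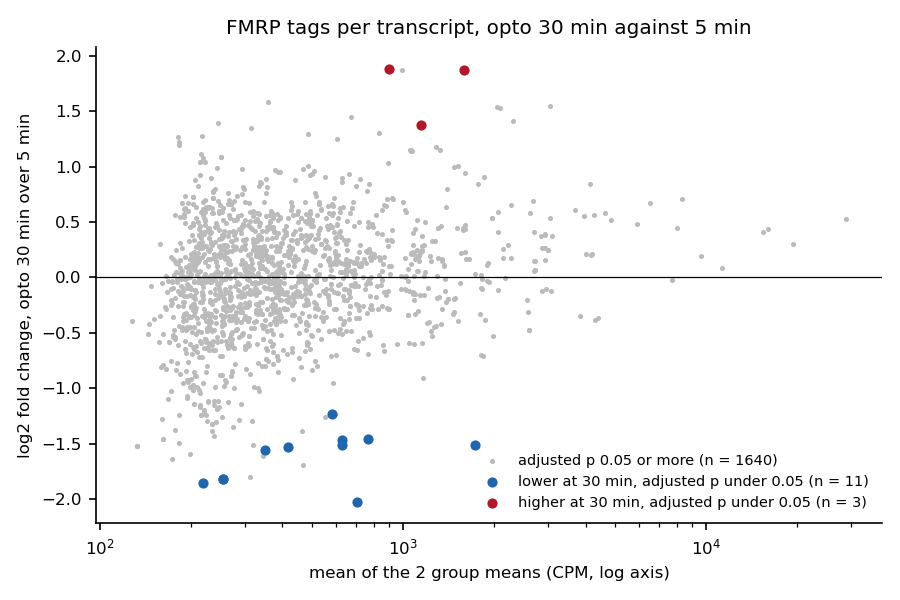
Log2 fold change of opto 30 min over 5 min (vertical axis) against the mean level in CPM (horizontal log axis) for the 1654 tested transcripts; red and blue points have an adjusted p under 0.05 in edgeR's test. The 3 higher and 11 lower transcripts lie at the edges of a cloud that the TMM scaling centres on 0.

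ENSMUST00000083211 had the smallest p of all. Its levels were 1810, 1889, 589 and 1491 CPM in opto 30 min replicates 1 to 4 and 320, 357, 317 and 435 CPM in opto 5 min replicates 1 to 4. The groups did not overlap, and the deepest 30 min library, replicate 3, was the lowest of its group. The mean was 1445 ± 596 CPM at 30 min and 357 ± 55.0 CPM at 5 min (SD, n = 4 each). In edgeR's test it rose by 1.88 on the log2 scale, with an SE of 0.32 and an adjusted p of 0.0135. These levels rest on 19 to 48 tags per library, a 2.53-fold range over libraries whose totals covered a 12.6-fold range. Pooled, it had 133 tags at 30 min and 124 at 5 min, so its number of tags was nearly the same at both times while the totals were not. It also had tags in the background, 16 of the 6478 noCre tags, all of them in noCre replicate 3. Its share of the pooled noCre tags was 0.247% (95% Wilson interval 0.152 to 0.401%), above the highest activated library at 0.116%. The interval covers counting error only, not the spread between noCre libraries, and the share rests on that single replicate.

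ENSMUST00000082396 was the second to rise. It had 5430, 1111, 1314 and 2256 CPM in opto 30 min replicates 1 to 4, and 534, 838, 426 and 767 CPM in opto 5 min replicates 1 to 4. Every 30 min library lay above every 5 min library, and replicate 1, the shallowest library, lay far above the others. The mean was 2528 ± 1998 CPM at 30 min and 641 ± 194 CPM at 5 min (SD, n = 4 each), and edgeR's log2 fold change was 1.87, with an SE of 0.37 and an adjusted p of 0.0335. Its tags ranged from 20 to 96 per library, 4.80-fold. The noCre libraries held 2 tags of it, a pooled share of 0.0309% with a 95% Wilson interval from 0.00847 to 0.113%, which covers counting error only. This share was within the range of the activated libraries.

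The third transcript that rose, at 1694 ± 1098 CPM at 30 min and 605 ± 151 CPM at 5 min (SD, n = 4 each), rose by 1.37 (log2, edgeR), with an SE of 0.32 and an adjusted p of 0.0473. Its groups, 722 to 3239 CPM and 390 to 713 CPM, did not overlap. All 3 risen transcripts were therefore free of overlap, as were 59 (3.57%) of all tested transcripts in this direction. The calls rest on the same 8 libraries, so overlap describes them and adds no test.

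The tags of these 3 transcripts were also described against library depth. Over the 16 Cre-positive libraries, within the 4 groups, tags of a transcript grew with the total tags of the library at a median log2 slope of 1.03 across the 1170 that averaged 20 tags or more, where 1 means a share that does not change with depth. From the 5th to the 95th percentile the slopes ran from 0.76 to 1.30. The 3 higher transcripts had slopes of 0.63 to 0.78. With the library depth as a covariate their log2 fold changes were 0.81 to 0.85 and none passed, with edgeR adjusted p-values of 0.474 for ENSMUST00000083211 and 0.543 for ENSMUST00000082396.

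ENSMUST00000174193 had the smallest p among the transcripts that fell. Its levels were 762, 278, 178 and 201 CPM in opto 30 min replicates 1 to 4 and 1388, 1177, 1097 and 539 CPM in opto 5 min replicates 1 to 4. Only opto 30 min replicate 1 reached into the 5 min range, above the lowest 5 min library. The mean fell from 1050 ± 362 to 355 ± 275 CPM (SD, n = 4 each), and edgeR's log2 fold change was -2.02, with an SE of 0.38 and an adjusted p of 0.0259. At 30 min the values rest on 5 to 13 tags per library, and 31 tags in all, against 421 at 5 min.

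ENSMUST00000032729 fell without overlap. It had 191, 222, 192 and 121 CPM in opto 30 min replicates 1 to 4 and 640, 446, 589 and 394 CPM in opto 5 min replicates 1 to 4. The mean was 181 ± 42.9 CPM at 30 min and 517 ± 116 CPM at 5 min (SD, n = 4 each), and edgeR's log2 fold change was -1.56, with an SE of 0.32 and an adjusted p of 0.0335. Its 30 min values were the most even among the 4 transcripts named here, but they rest on 2 to 14 tags per library, 23 in all.

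The other 9 transcripts that fell had log2 fold changes from -1.85 to -1.23 (SE 0.27 to 0.41) and edgeR adjusted p-values from 0.0335 to 0.0425. Their mean levels ran from 340 to 2440 CPM at 5 min and from 99.0 to 1009 CPM at 30 min. The most tagged of them had 1810, 1111, 630 and 483 CPM in opto 30 min replicates 1 to 4 and 3209, 1819, 3345 and 1389 CPM in opto 5 min replicates 1 to 4. Its groups overlapped, because opto 30 min replicate 1 lay above opto 5 min replicate 4, and edgeR gave it -1.51 on the log2 scale, with an SE of 0.35 and an adjusted p of 0.0425.

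Of the 11 transcripts that fell, 5 had groups that did not overlap and 6 had groups that did, where 87 (5.26%) of all tested transcripts were free of overlap in this direction. Over all 11, overlapping or not, the highest 30 min library was replicate 1 for 6 and replicate 2 for 5. The lowest 5 min library was replicate 4 for 10 of them. These replicates are the shallowest libraries of their groups, and the share over all tested transcripts is not given here. Tags per 30 min library ran from 1 to 46 over these transcripts, and from 12 to 481 at 5 min. The 11 do not stand for 11 independent RNAs. A pair had identical counts in all 8 libraries, and another pair differed in under 5% of its tags, which leaves 9 distinct profiles. How tags shared by isoforms or related genes were assigned is not given in the sources used here, so the values of such pairs are uncertain.

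The transcripts that fell had 0 to 3 tags each among the 6478 noCre tags, and 3 of the 11 had none. With so few noCre tags this is not a low share for all of them. For 2 of the 11 the noCre share was above their share of the pooled opto tags. This was so for 568 of all 1654 tested transcripts, and for 2 of the 3 that rose. For ENSMUST00000032729 the noCre share was 0.0309% against 0.0269%. For ENSMUST00000174193 it was 0.0463% against 0.0533%. The slopes of the 11 with depth were 1.05 to 1.34, with a median of 1.16. Over the 1170 transcripts the median was 1.03 and the upper quartile 1.13, so a slope above 1 is common. With the depth covariate the log2 fold changes of the 11 ran from -1.95 to -0.96, with none passing (edgeR adjusted p from 0.0887 to 0.478). Their SEs were 0.36 to 0.51 with the covariate and 0.27 to 0.41 without it. Here too the covariate and the time overlap, and the part of depth was not tested.

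**Figure D3:**
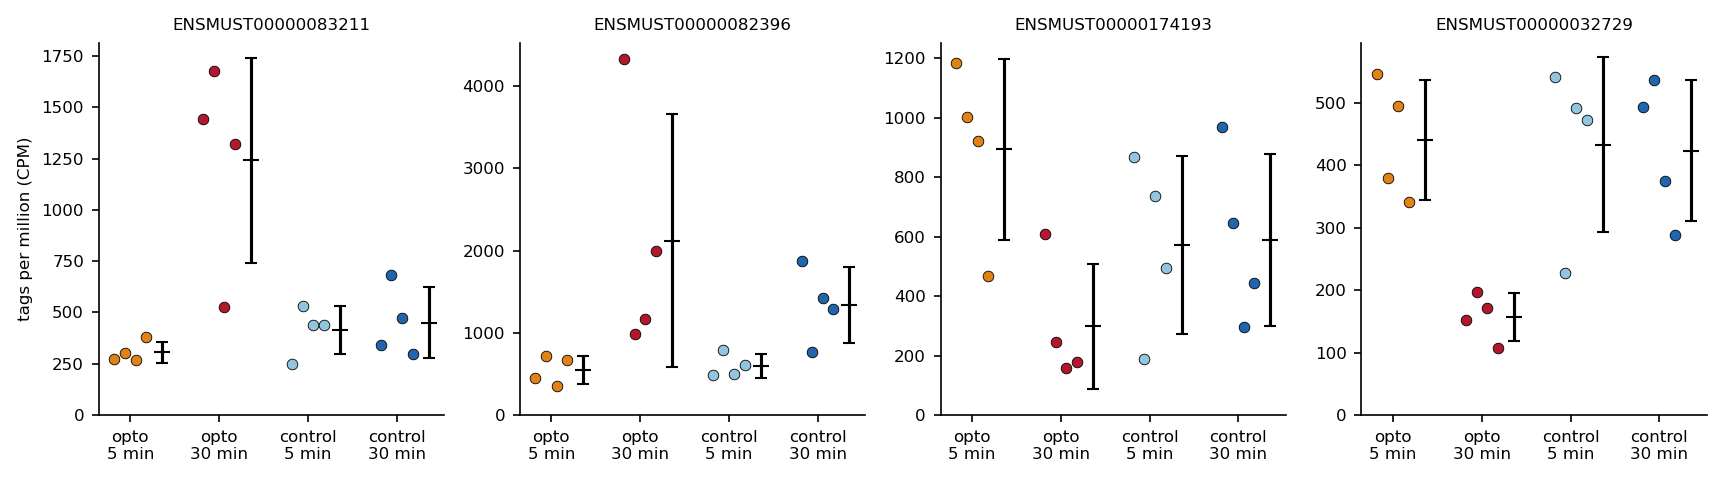
Level of the 4 named transcripts in each opto and control library (CPM on the scale of the fit of 16 libraries, which lies somewhat below the scale of the 8-library fit); points are libraries in replicate order, and marks with bars are mean ± SD (n = 4). The 2 transcripts on the left are higher and the 2 on the right lower in opto libraries at 30 min than at 5 min, and control libraries of ENSMUST00000082396 also differ between the times.

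The number of calls moved with each library left out. With each of the 8 left out in turn it ran from 0 to 59. Without opto 30 min replicate 4 or opto 5 min replicate 1 no transcript passed in edgeR's test, with 288 and 216 at an unadjusted p under 0.05. Without opto 5 min replicate 3, 3 passed, and without opto 30 min replicate 3, 20 passed, all of them higher at 30 min. Without opto 30 min replicate 1 or 2 the numbers were 36 and 40, and without opto 5 min replicate 2 or 4 they were 31 and 59, and each of these 4 fits included all 14 of the original calls. The direction of the 14 held in each of these 8 fits, which share most libraries with the fit that called them, so this adds no test. Without both of the shallowest libraries, opto 30 min replicates 1 and 2, an alternative chosen after the totals were seen, 99 transcripts passed, 49 higher and 50 lower, and all 14 were among them. The tool mattered too, with 3 of the 14 passing in DESeq2 and all 14 among 58 in limma voom. The 30 min libraries were the more variable group, with a biological coefficient of variation of 0.275 against 0.167 at 5 min.

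**Figure D4:**
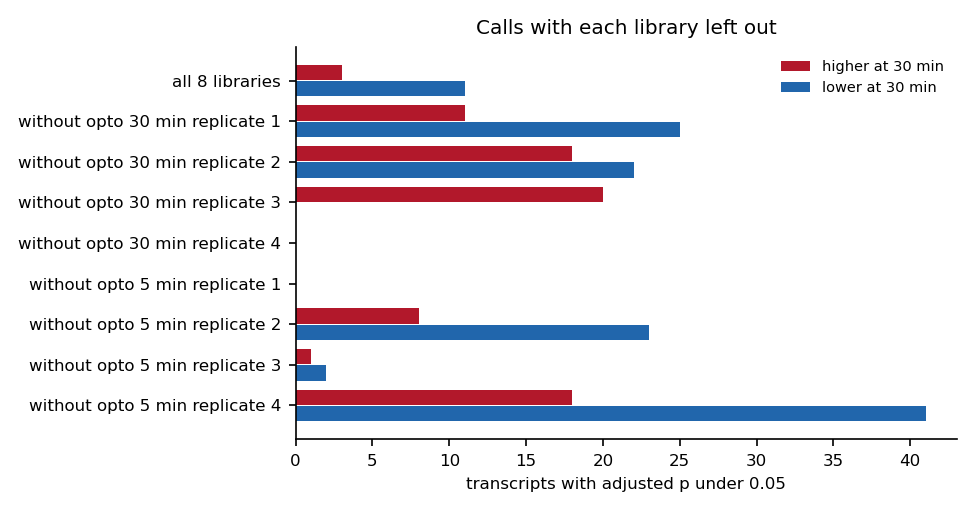
Number of transcripts with an adjusted p under 0.05 (horizontal axis) that were higher (red) or lower (blue) at 30 min, with all 8 opto libraries and with each left out in turn. Counts run from 0, without opto 30 min replicate 4 or opto 5 min replicate 1, to 59 without opto 5 min replicate 4.

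The control libraries carry the same coincidence of time and deposit without activation, so their time difference was set beside that of the activated libraries. Both came from 1 model of the 16 libraries with Cre, in which 2871 transcripts were tested. Across the 1654 transcripts tested in both fits the opto and control log2 fold changes correlated with Pearson's r = 0.378 and Spearman's rho = 0.337, and 61.2% had the same sign. For the 228 that averaged 50 tags or more the correlations were 0.442 and 0.396. These describe transcripts that share libraries and are not independent replicates, and the 2 contrasts have no library in common.

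The 3 risen transcripts were also higher at 30 min in the controls, to a different extent. ENSMUST00000083211 differed little in the controls, at 449 ± 173 CPM at 30 min and 413 ± 117 CPM at 5 min (SD, n = 4 each, scale of the 16-library fit), or 0.27 on the log2 scale (SE 0.30). ENSMUST00000082396 had 1339 ± 460 CPM at 30 min and 598 ± 142 CPM at 5 min in the controls (SD, n = 4 each), or 1.20 on the log2 scale, with an SE of 0.32 and an edgeR adjusted p of 0.147. The third had a control log2 fold change of 1.03, with an SE of 0.27 and an edgeR adjusted p of 0.147. In the controls 2 of the 3 had an unadjusted p under 0.05 in edgeR's test, and 0 passed after adjustment. The difference between the opto and the control time difference was 1.65 for ENSMUST00000083211 (SE 0.44, edgeR adjusted p = 0.331) and 0.66 for ENSMUST00000082396 (SE 0.46, edgeR adjusted p = 0.765). Neither passed.

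The transcripts that fell had control log2 fold changes on both sides of 0. Of the 11, 7 were lower at 30 min in the controls too, the values ran from -0.68 to 0.79 with a median of -0.15, and none passed in the controls. ENSMUST00000174193 had 589 ± 290 CPM at 30 min and 572 ± 298 CPM at 5 min in the controls, and ENSMUST00000032729 had 423 ± 113 and 433 ± 140 CPM (SD, n = 4 each). Their opto time difference minus the control one was -1.83 (SE 0.55) and -1.35 (SE 0.42), with edgeR adjusted p-values of 0.331 and 0.350. Over the 11 this difference ran from -2.22 to -0.998. Since the 11 were chosen for their fall in the same opto libraries, its sign and size for them are a description. Its adjusted p, over all tested transcripts, was under 0.05 for 1 of them.

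That transcript, ENSMUST00000092956, was the 1 of 2871 (0.0348%) for which the time difference of the activated libraries itself differed from that of the controls, and 218 (7.59%) had an unadjusted p under 0.05. It had 857, 167, 370 and 363 CPM in opto 30 min replicates 1 to 4 and 1047, 1356, 680 and 1285 CPM in opto 5 min replicates 1 to 4, on the scale of the 8-library fit. Opto 30 min replicate 1 lay above opto 5 min replicate 3, and edgeR's log2 fold change was -1.46, with an SE of 0.32 and an adjusted p of 0.0390. In the controls it went the other way, by 0.79 (SE 0.25, edgeR adjusted p = 0.281). The 21 alternatives refit the same libraries or most of them. Over them the difference of -2.22 (SE 0.41, edgeR adjusted p = 0.0249) kept its direction, from -2.46 to -2.05, and passed in 15. It was lost without opto 30 min replicate 2, 3 or 4, control 30 min replicate 4, opto 5 min replicate 2 or control 5 min replicate 1, with edgeR adjusted p-values from 0.0540 to 0.124.

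The reverse view starts from the controls, where 5 transcripts (0.174% of 2871) passed between the times, all higher at 30 min by 1.51 to 2.85 on the log2 scale. At an unadjusted p under 0.05 the controls had 5.02% higher and 3.9% lower. In the activated libraries their log2 fold changes ran from -0.38 to 0.92, 2 of the 5 were higher at 30 min, and none passed, with 1 at an unadjusted p under 0.05. ENSMUST00000173672, the strongest in the controls, had 476, 167, 575 and 483 CPM in opto 30 min replicates 1 to 4 and 193, 375, 127 and 435 CPM in opto 5 min replicates 1 to 4. These groups overlapped, and edgeR gave 0.89 on the log2 scale, with an SE of 0.38 and an adjusted p of 0.238. The opto minus control difference was -1.93 (SE 0.50, edgeR adjusted p = 0.331) and did not pass.

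**Figure D5:**
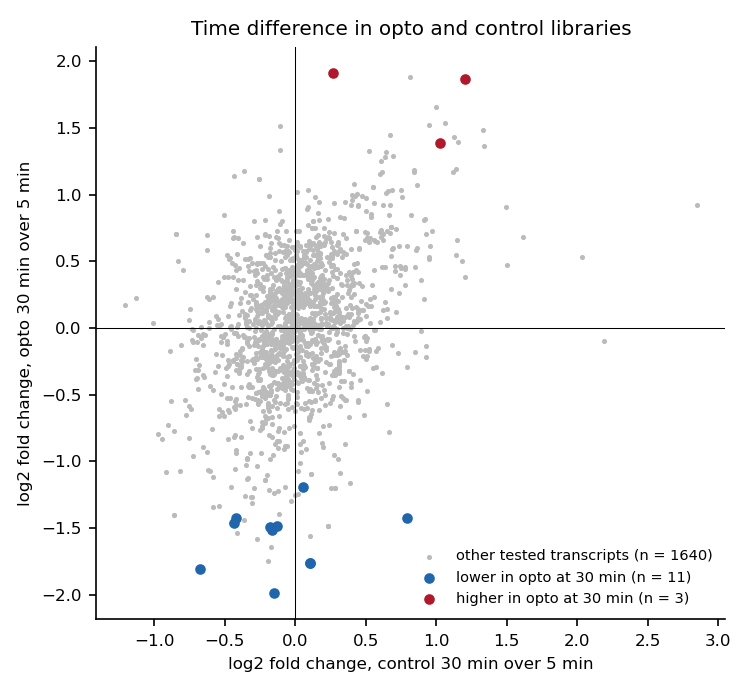
Log2 fold change from 5 to 30 min in opto libraries (vertical axis) against that in control libraries (horizontal axis), both from the fit of 16 libraries, for the 1654 transcripts tested in both fits; coloured points are the 14 called in the opto comparison. The 3 higher transcripts lie to the right of 0 and the 11 lower ones lie between -0.68 and 0.79 on the control axis.

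The changes were also described by level and by background. The 414 transcripts with the highest mean levels, from 574 to 29002 CPM, had a median log2 fold change of 0.12 and held all 3 of the higher and 6 of the lower transcripts. In 3 groups of lower level the medians ran from -0.09 to 0.00, with 5 of the lower transcripts among them. The 624 tested transcripts with no noCre tag had a median of -0.03 and the 1030 with at least 1 had a median of 0.02. Transcripts with a larger share in noCre than in the pooled controls held 23.4% to 27.2% of the tags in the opto 30 min libraries and 22.8% to 25.2% in the opto 5 min libraries, so these ranges overlapped. Transcripts with no noCre tag held 42.6% to 44.5% at 30 min and 47.3% to 49.7% at 5 min, without overlap. In the controls the latter ran from 45.5% to 48.4% at 30 min and from 43.5% to 49.98% at 5 min, with the lowest value in the shallow control 5 min replicate 2.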

How the data were processed

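FMRP CLIP tags were measured in 19 libraries. The submitters' processing notes name cutadapt, STAR and the build mm10, without versions or order. Each deposited file gives raw counts, the number of tags assigned to an Ensembl transcript, per the file headers. Handling of duplicates and isoforms is not given in the sources used here, and 126 of the tested transcripts had the counts of another in all 8 libraries.

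The 4 opto libraries of each time were fitted alone in edgeR 4.0.16 (R 4.3.3; TMM factors 0.885 to 1.08; filterByExpr with minimum count 10 and total 15; quasi-likelihood test; Benjamini-Hochberg over all tested transcripts). The difference from the controls came from 1 fit of 16 libraries. In simulated data for the main comparison, with 1654 transcripts, 62.2% of 82 tested 2-fold changes and all of 85 tested 4-fold changes were recovered. Of the calls, 2.16% were false. For the difference from the controls, with 2871 transcripts, 16.1% and 74.2% were, of 93 tested changes each, and 7.69% of the calls were false. Changed transcripts that the filter on low counts removed are not in these percentages. Both simulations gave every transcript and library the same biological coefficient of variation, 0.19. In the data it was 0.275 in the opto 30 min libraries and 0.167 in the opto 5 min libraries, so the recovery there may differ. Single values used exact permutation tests (Python 3.11.15, scipy 1.17.1).

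Transcripts were named by smallest p, at most 2 in each direction of a comparison, because 0 IDs matched the gene table. Gene and marker lists were therefore not used. The comparison and lists were chosen with earlier results of these data known. Replicate numbers were not treated as pairs: deviations of same-numbered libraries from their group means correlated at -0.311 to 0.328 over 228 transcripts. Alternatives were other scaling, filters, depth treatments, fits, DESeq2 1.42.0, limma 3.58.1 and leaving out each library.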

Additional observations from a re-analysis of the deposited data

Results flagged for a closer look

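ENSMUST00000174193 stood out for 1 library: opto 30 min replicate 1 reached 762 CPM from 8 tags, while replicates 2 to 4 lay between 178 and 278 CPM. Of 18 sets of 4 values examined this was the 1 with such a gap, and chance gives about 1 in 20.

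ENSMUST00000092956 stood out because its time difference in the opto libraries differed from that in the controls, with a log2 difference of -2.22, an SE of 0.41 and an edgeR adjusted p of 0.0249.

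The number of transcripts listed at equal depth stood out for the same reason, with a difference of -757 transcripts between the opto and the control time differences (exact permutation p = 0.0335, and 0.0824 without control 5 min replicate 2). That permutation assumes no time difference in either treatment, so its p is not a test of equal time differences.

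ENSMUST00000083211 stood out in the noCre libraries, where its pooled share was 0.247%, above the highest activated library at 0.116%. All 16 noCre tags were in noCre replicate 3.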

How the results depend on the processing

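The 14 calls (3 higher and 11 lower) kept their direction in all alternatives in which they were tested, but their number did not hold. The alternatives reuse the libraries that gave the calls, so the kept direction is a description and adds no test. After thinning only 3 of the 14 were tested. It was 25 (21 lower) with library totals only, 42 (40 lower) with no filter beyond 1 tag, 9 (7 lower) at a mean of at least 20 tags, 7 (3 lower) in the fit of 16 libraries, 3 (1 lower) in DESeq2, 58 (39 higher, 19 lower) in limma voom with quality weights, and 99 (49 higher, 50 lower) without both of the shallowest libraries. It was 0 after thinning every library to the smallest total (39 of 252 at an unadjusted p under 0.05), 0 without background-enriched transcripts (198) and 0 with the depth covariate (133), all in edgeR. Leaving out background-enriched transcripts kept 10 of the 14 in the test, among them ENSMUST00000082396 at 1.91 and ENSMUST00000174193 at -2.01 (log2, edgeR adjusted p = 0.0607 for both). The replicate block gave 10, 5 higher and 5 lower, 7 of them among the 14, and the difference from the controls for ENSMUST00000083211 passed under it alone of 21 alternatives (edgeR adjusted p = 0.0135). Library totals only moved the median of all transcripts to -0.10. Leaving out each library gave 0 to 59 calls, 0 to 20 higher and 0 to 41 lower.

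The difference from the controls had 1 call, 0 to 1 with each library left out, 2 with the depth covariate and 5 with the replicate block. The ratio of totals ran from 0.205 to 0.372 and that of listed transcripts from 0.901 to 0.925 with each library left out; their difference from the controls ran from -872 to -538. With the replicate block (exact sign-flip p = 0.125, the smallest it allows) neither the listed ratio of 0.915 nor the top 100 difference of 4.63 passed. For the 10 most tagged transcripts the difference was 2.15 percentage points (exact permutation p = 0.0571). The cause of these changes was not tested. Depth limits the transcripts that fell, since at 30 min they had as few as 1 tag per library.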

Other observations

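A transcript outside the tested set, chosen after its values were seen, had the most 5 min tags of any with none at 30 min in the activated libraries. It had 33 tags over the opto 5 min libraries, 2 to 14 in each, and 0 over the opto 30 min libraries, where its 5 min share would give 11.1. Taking 3 tags over the group as the limit would make its share at least 3.71-fold lower at 30 min. This bound covers counting error only and makes no allowance for choosing the transcript by its count of 0. Whether its share changed was not tested. The controls had 29 tags at 30 min and 37 at 5 min. In the other direction, no transcript without 5 min tags had more than 8 tags over the opto 30 min libraries.

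The fit of 16 libraries called 2 transcripts from 5 to 30 min in the activated libraries that were not among the 14, of which 1 was tested in the fit of 8.

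Opto 30 min replicate 1 was the least like the others over the 228 transcripts that averaged 50 tags or more, with a mean correlation of log2 levels of 0.726 to the other 30 min libraries and 0.691 to the 5 min libraries. Opto 30 min replicate 3 had 0.852 and 0.854.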
